A study of Mus musculus with 6 samples.

Results

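Potassium channel genes were followed in mouse pancreatic islets, the clusters of hormone-secreting cells scattered through the exocrine pancreas. All probe sets whose single symbol in the platform annotation begins with Kcn were taken, leaving out Kcnj11. This gave 165 probe sets for 83 genes, of 18193 genes with a single symbol in the series. Each gene was represented by the probe set with the highest mean log2(signal + 16) over the 6 arrays, where 16 is a pseudocount. The groups were islets of pregnant mice at 12.5 days post coitum (dpc; 3 arrays) and islets of non-pregnant mice (0 dpc; 3 arrays). The labels give no strain, age, genotype or other treatment, and do not tell whether each array stands for its own mouse or for pooled mice. The tests therefore take in the spread among these 6 arrays and nothing wider, and part of it may be technical. The study asked which factors make islets proliferate in pregnancy.

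Potassium channels let potassium leave a cell and so draw its membrane voltage down. In beta cells a rise in glucose closes the ATP-sensitive channels at rest, the cell depolarises, calcium enters and insulin is released. Voltage-gated and calcium-activated channels then end each spike, tandem-pore channels carry a steady leak, and inward rectifiers hold the resting voltage. A channel is built from pore subunits, which often work together with accessory subunits that change its gating or its delivery to the membrane.

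Of the 83 genes, 46 were bright enough to be tested and 37 were not. The filter kept the top 60% of probe sets by mean log2 value, which corresponds to a signal of about 50.5. Every array had a 2% trimmed mean signal of 500.003, and array medians lay between 86.1 and 92.9 in pregnant and between 89.9 and 100.3 in non-pregnant islets. The control probe sets TrpnX, for a bacterial transcript, read between 1.1 and 32.3, and between 20 and 29 of the 83 genes lay under that upper value on any 1 array. The islet label was borne out by Ins2, insulin, with a mean signal of 20510 in pregnant and 18776 in non-pregnant islets (log2 difference 0.13 ± 0.08, SE; limma adjusted p = 0.40).

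Of the 46 potassium channel genes tested, 4 fell and 0 rose at a limma adjusted p under 0.05. Kcna5, Kcnip4, Kcnj4 and Kcnk3 fell, 1 from each of 4 channel classes. Among all 12914 genes tested in the same way, 5.79% fell, 6.1% rose and 11.9% did either, against 8.7% of the potassium channel genes, so their share of calls lay near the background. At an unadjusted p under 0.05 there were 12 genes (26.1%), 11 lower and 1 higher, against 27.2% of all genes. The count of 4 rests on the setting: 1 gene fell when pregnant replicate 1 was left out, 2 when either non-pregnant replicate 2 or 3 was, and 2 with each array centred on its median. With median centring 329 of all genes fell and 872 rose, against 748 and 788 as deposited.

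The log2 differences, pregnant minus non-pregnant, ran from -1.63 to 0.74 with a median of -0.12, and 69.6% of them were negative. Over all genes tested the median was -0.04 and 56.5% were negative. With median centring these shares were 54.3% and 43.4%. In 11 of the 46 genes (23.9%) the pregnant and non-pregnant signals did not overlap, always with the pregnant arrays lower. Over all genes 31.8% did not overlap, 17.9% with the pregnant arrays lower. On each array the median of the 46 genes, centred per gene, was -0.06, -0.12 and 0.01 on pregnant replicates 1, 2 and 3, against 0.08, 0.19 and 0.13 on non-pregnant replicates 1, 2 and 3.

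**Figure D1:**
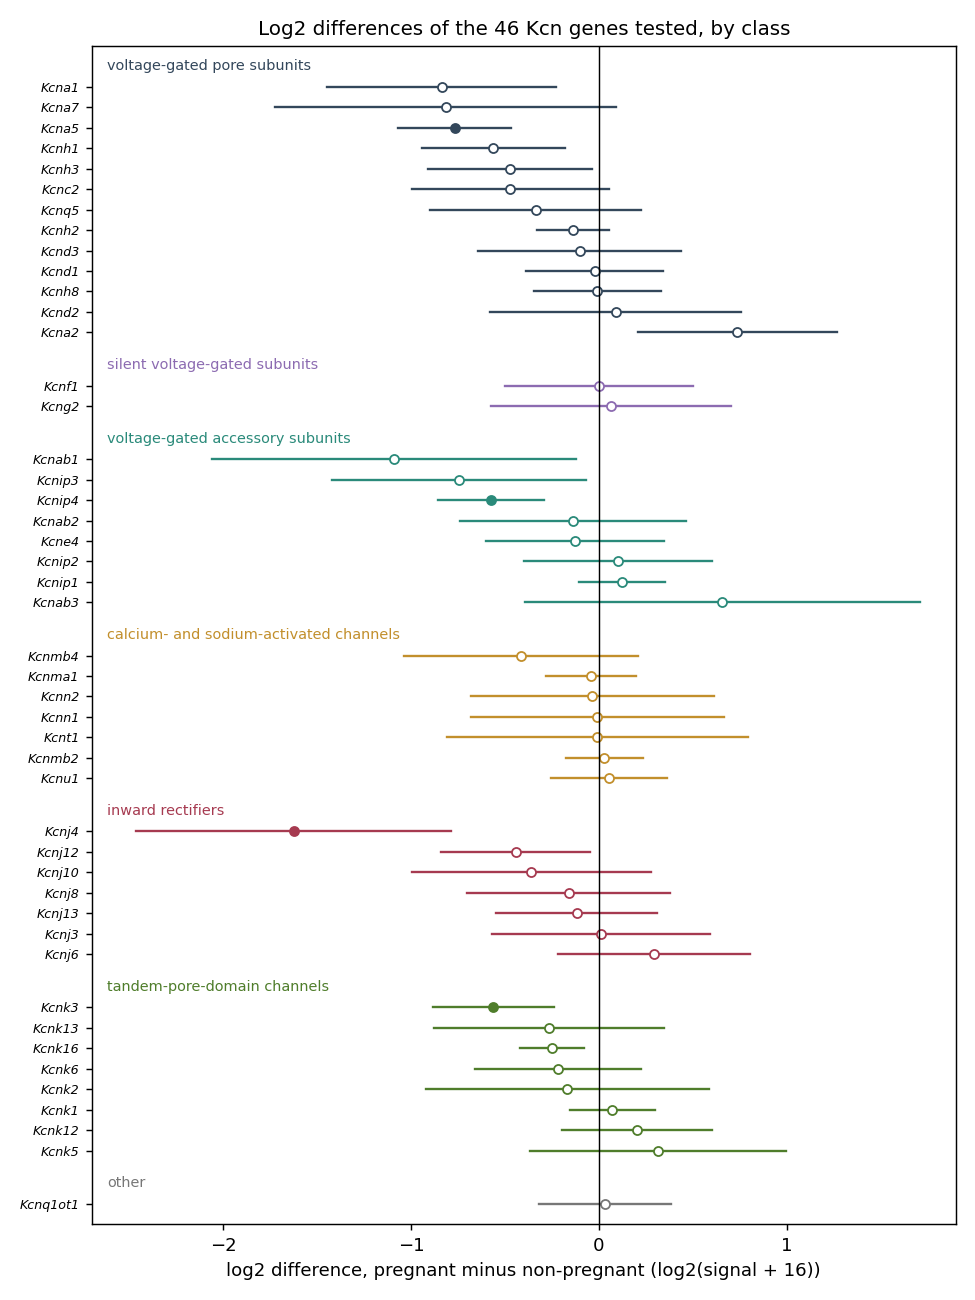
Log2 differences (pregnant minus non-pregnant, horizontal axis) of the 46 tested genes, 1 row a gene, grouped by channel class. Points are limma estimates, lines their unadjusted 95% intervals, and filled points the 4 genes with an adjusted p under 0.05. All 4 filled points lie left of 0, between -1.63 and -0.56.

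Among the pore subunits of voltage-gated channels, which open when the membrane depolarises, 13 of 22 genes were tested, 1 fell and 0 rose. Kcna5, a delayed rectifier of the Shaker family, read 277.1, 250.0 and 243.4 in pregnant islets, against 486.4, 478.5 and 385.9 in non-pregnant islets. Every pregnant array lay well under every non-pregnant one. The means were 256.8 ± 17.9 in pregnant and 450.3 ± 55.9 in non-pregnant islets (SD, n = 3 each), a ratio of 0.570. On the log2 scale Kcna5 differed by -0.77 ± 0.14 (SE), with a limma adjusted p of 0.0043. Among the 4 genes that fell, Kcna5 kept its call most often, under 17 of the 18 alternatives. The exception was the fit with each array's median level of acinar (exocrine) marker genes as a covariate (-0.95, adjusted p = 0.074). That level itself differed between the groups without overlap, so this fit cannot cleanly separate it from pregnancy.

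The promoter windows of Kcna5, the fall kept under most alternatives, and Kcnj4, the fall with the lowest log2 difference, are shown because they are the stretches nearest to the genes' start sites. They are RefSeq sequences of GRCm38.p6, from 250 bases before to 50 after the start, at chr6:126535506-126535805 (minus strand) and chr15:79505192-79505491 (minus strand). Capitals mark GC boxes (GGGCGG or, on the other strand, CCGCCC), and the Kcna5 window has none.
Kcna5: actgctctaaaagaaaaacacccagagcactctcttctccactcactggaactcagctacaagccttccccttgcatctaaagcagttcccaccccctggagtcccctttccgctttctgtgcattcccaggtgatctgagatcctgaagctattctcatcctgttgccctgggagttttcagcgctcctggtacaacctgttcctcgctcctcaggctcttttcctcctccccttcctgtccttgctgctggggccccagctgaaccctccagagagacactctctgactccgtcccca
Kcnj4: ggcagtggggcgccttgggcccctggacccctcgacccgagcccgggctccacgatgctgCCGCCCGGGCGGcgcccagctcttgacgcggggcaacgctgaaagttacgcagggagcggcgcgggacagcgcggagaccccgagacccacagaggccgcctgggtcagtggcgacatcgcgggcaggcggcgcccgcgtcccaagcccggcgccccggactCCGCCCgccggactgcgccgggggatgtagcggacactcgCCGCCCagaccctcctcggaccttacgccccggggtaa
Both strands were searched for 4 motifs: the GC box, the TATA box TATAAA, the cyclic AMP response element TGACGTCA, and TTCNNNGAA, the element bound by STAT factors, which act downstream of the prolactin receptor. The Kcnj4 window held 4 GC boxes, beginning 190, 184 and 28 bases before and 12 bases after the start site, the first of them directly next to the second. The Kcna5 window held none of the 4 motifs, which says only that these letters are not in this window. Among all 32851 RefSeq promoter windows of this length, 35.7% held a GC box, 13.6% a TATA box, 8.3% the STAT element and 1.79% the cyclic AMP element. Windows were found for 64 of the 83 potassium channel genes. These genes had 89 windows, as a gene can have several, and 48.3% of the windows held a GC box. Of the 46 tested genes 36 had windows, and of the 4 that fell 3, all but Kcnk3. Over the 54 windows of those tested, 40.7% held a GC box, 9.26% the STAT element, 3.7% a TATA box and 0 the cyclic AMP element.

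Kcna1 and Kcna2 are Shaker relatives best known from axons, and their estimates pointed in opposite directions. Kcna1 read 51.0, 75.3 and 119.4 in pregnant islets, against 186.2, 136.0 and 137.7 in non-pregnant islets, with no overlap between the groups. Its log2 difference was -0.84 ± 0.28 (SE; limma adjusted p = 0.087, and 0.037 without pregnant replicate 3). It was -0.55 with its probe sets averaged (adjusted p = 0.20) and -0.26 ± 0.46 with the acinar covariate (adjusted p = 0.86). Of its other tested probe sets 1 had -0.84 ± 0.26 (adjusted p = 0.062) and 1 had 0.17 ± 0.35. Kcna2 read 554.7, 347.0 and 380.6 in pregnant islets, against 360.1, 243.0 and 165.9 in non-pregnant islets. Pregnant replicate 1 was the highest, non-pregnant replicate 3 the lowest, and the groups overlapped. At 0.74 ± 0.24 it had the highest log2 difference of the 46 and did not pass (limma adjusted p = 0.083). Without non-pregnant replicate 1 it did, at 1.00 (adjusted p = 0.020), and likewise with the replicate number as a block (0.74, adjusted p = 0.017). It was smaller without non-pregnant replicate 3 (0.48, adjusted p = 0.24) and with its probe sets averaged (0.25, adjusted p = 0.54). A further Kcna2 probe set read 225.8, 148.0 and 170.8 in pregnant and 99.0, 118.2 and 106.9 in non-pregnant islets, without overlap (0.66 ± 0.21, adjusted p = 0.075), and another, dimmer one had -0.05 ± 0.42.

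The ether-a-go-go group of this class was represented by Kcnh1, Kcnh2, Kcnh3 and Kcnh8. Kcnh1 read 152.7, 158.7 and 171.1 in pregnant islets, against 200.3, 269.2 and 272.1 in non-pregnant islets. The groups did not overlap, and the log2 difference of -0.56 ± 0.17 missed the threshold (limma adjusted p = 0.066). It passed with array weights (-0.59, adjusted p = 0.049), with a top 40% filter (adjusted p = 0.047) and without non-pregnant replicate 1 (-0.70, adjusted p = 0.037). In the other 15 of 18 alternatives Kcnh1 did not pass, with adjusted p up to 0.37. Its other tested probe set had -0.30 ± 0.20 (adjusted p = 0.42), also without overlap. Kcnh3 read 97.4, 102.3 and 100.1 in pregnant islets, against 148.7, 151.8 and 134.3 in non-pregnant islets, again without overlap (-0.47 ± 0.20, adjusted p = 0.18). Other Kcnh3 probe sets ran the other way: the other tested one had 0.34 ± 0.37, and one under the filter read 54.3, 52.0 and 74.2 in pregnant and 22.9, 27.9 and 30.2 in non-pregnant islets. Kcnh2, the rapid delayed rectifier of heart that is also active in beta cells, averaged 1028 ± 68.9 in pregnant and 1133 ± 65.8 in non-pregnant islets (SD, n = 3 each). Its interval ran from -0.33 to 0.05 around -0.14. Kcnh8 had -0.01 ± 0.16.

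The other 6 tested genes of the class did not pass either. Kcna7 had -0.82 ± 0.42, with pregnant signals of 18.7, 36.3 and 109.4 against 93.8, 89.4 and 91.1 in non-pregnant islets, so pregnant replicate 3 alone lay above the non-pregnant arrays. Without that array its log2 difference was -1.33 (limma adjusted p = 0.048). It was -0.41 without pregnant replicate 1 (adjusted p = 0.63) and -0.04 ± 0.70 with the acinar covariate (adjusted p = 0.99). Kcnc2, of the fast-spiking Shaw family, had -0.47 ± 0.24, and Kcnq5, of the muscarine-sensitive M-current family, -0.34 ± 0.26 with groups that did not overlap. The A-type genes Kcnd1, Kcnd2 and Kcnd3 lay at -0.02 ± 0.17, 0.09 ± 0.31 and -0.10 ± 0.25. In all, 11 of the 13 tested pore genes (84.6%) had a negative difference, with a class median of -0.34. These numbers were 9 of 13 and -0.26 with median centring, and 8 of 13 and -0.19 with the acinar covariate.

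**Figure D2:**
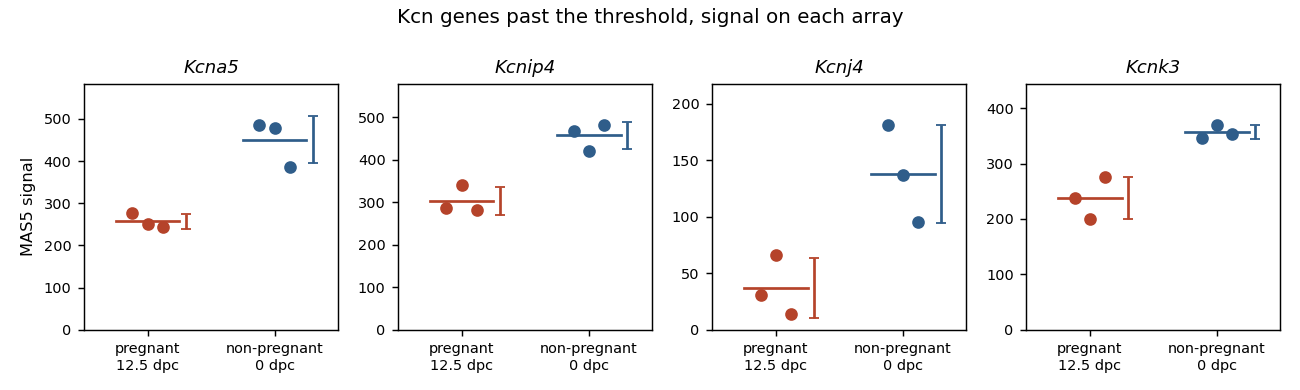
MAS5 signal (vertical axis, from 0) on each array for the 4 genes that fell, pregnant islets left and non-pregnant islets right. Points are arrays, horizontal lines means and side bars 1 SD either way (n = 3 each). In all 4 genes the pregnant and non-pregnant arrays do not overlap, and the pregnant means are 0.267 to 0.668 of the non-pregnant means.

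Accessory subunits of voltage-gated channels do not form a pore themselves. Of 12 such genes 8 were tested, 1 fell and 0 rose, and the class median was -0.13. Kcnip4, a calcium-binding partner of the A-type Kcnd channels, read 286.5, 341.2 and 281.0 in pregnant islets, against 468.9, 420.6 and 482.9 in non-pregnant islets. No array of one group reached the other. The means were 302.9 ± 33.3 in pregnant and 457.5 ± 32.7 in non-pregnant islets (SD, n = 3 each), a ratio of 0.662. On the log2 scale Kcnip4 differed by -0.57 ± 0.13 (SE), with a limma adjusted p of 0.016. Its other tested probe sets had -0.38 ± 0.26 and -0.44 ± 0.27 (adjusted p = 0.44 and 0.37), and the average over its probe sets did not pass (-0.46, adjusted p = 0.11). The call was also lost without pregnant replicate 1 (adjusted p = 0.064), pregnant replicate 3 (0.057) or non-pregnant replicate 3 (0.059), with median centring (0.055) and without the variance trend (0.062).

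Kcnip3, a related calcium sensor that also acts as a transcriptional repressor, read 62.7, 29.9 and 63.8 in pregnant islets, against 102.6, 105.9 and 78.0 in non-pregnant islets. The groups did not overlap, and the log2 difference was -0.75 ± 0.31 (limma adjusted p = 0.17). Kcnip1 was bright and showed no such gap, with 2501 ± 180.3 in pregnant and 2310 ± 377.6 in non-pregnant islets (SD, n = 3 each). Its log2 difference was 0.12, with an interval of -0.10 to 0.35, and Kcnip2 had 0.10 ± 0.23.

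Kcnab1 and Kcnab3 encode cytosolic beta subunits, which bind Shaker channels, and both were uneven between arrays. Kcnab1 read 21.7, 108.0 and 138.4 in pregnant islets, against 260.9, 140.9 and 145.5 in non-pregnant islets. Its log2 difference of -1.09 ± 0.45 (limma adjusted p = 0.16) was -0.47 without pregnant replicate 1, the lowest array, and -0.83 without non-pregnant replicate 1, the highest. Kcnab3 read 190.3, 85.6 and 168.3 in pregnant islets, against 22.6, 144.2 and 142.9 in non-pregnant islets, with 0.66 ± 0.48 (adjusted p = 0.47) and -0.02 without non-pregnant replicate 1. Its other tested probe set read 86.4, 107.4 and 93.1 in pregnant islets, against 73.7, 59.5 and 8.5 in non-pregnant islets, without overlap (1.02 ± 0.44, adjusted p = 0.19), and the average of its probe sets had 0.84 (adjusted p = 0.085). Kcnab2 had -0.14 ± 0.28 and Kcne4, a single-span subunit, -0.13 ± 0.22.

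Silent subunits reach the membrane only together with other voltage-gated pore subunits. Of 9 such genes only Kcnf1 and Kcng2 were bright enough to be tested, and neither passed. Kcnf1 had -0.0004 ± 0.23 and Kcng2 0.07 ± 0.29, with intervals of -0.50 to 0.50 and -0.57 to 0.71.

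The class of calcium- and sodium-activated channels follows symbol prefixes. It holds channels that open when those ions enter the cell, but also their beta subunits and Kcnu1. There were 0 calls among 7 tested of these 11 genes, also at an unadjusted limma p under 0.05. Over all genes tested 11.9% were called and 27.2% had an unadjusted p under 0.05, so 7 genes are few to compare with. Their class median was -0.01. Kcnmb2, a beta subunit of the large-conductance BK channel, read 4034.2, 3991.1 and 3966.5 in pregnant islets, against 3343.9, 4568.8 and 3944.7 in non-pregnant islets. The pregnant arrays fell inside the non-pregnant range, and the interval of the log2 difference was -0.18 to 0.23. Kcnma1, the BK pore itself, averaged 635.0 ± 53.5 in pregnant and 654.7 ± 58.7 in non-pregnant islets (SD, n = 3 each), with an interval of -0.28 to 0.20. All 4 of its tested probe sets had negative differences, the lowest -0.35 ± 0.25, and none passed. Kcnmb4, another BK beta subunit, had -0.41 ± 0.29.

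The small-conductance channels Kcnn1 and Kcnn2 lay at -0.01 ± 0.31 and -0.03 ± 0.30, and Kcnt1, a sodium-activated channel, at -0.01 ± 0.37. Their intervals were wide, from -0.68 to 0.67 for Kcnn1. Kcnu1 is known as a channel of sperm, yet its probe set read 970.2, 1125.0 and 780.9 in pregnant islets, against 1052.2, 764.7 and 948.3 in non-pregnant islets. The groups overlapped (0.05 ± 0.14). It is the only Kcnu1 probe set with that single symbol.

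**Figure D3:**
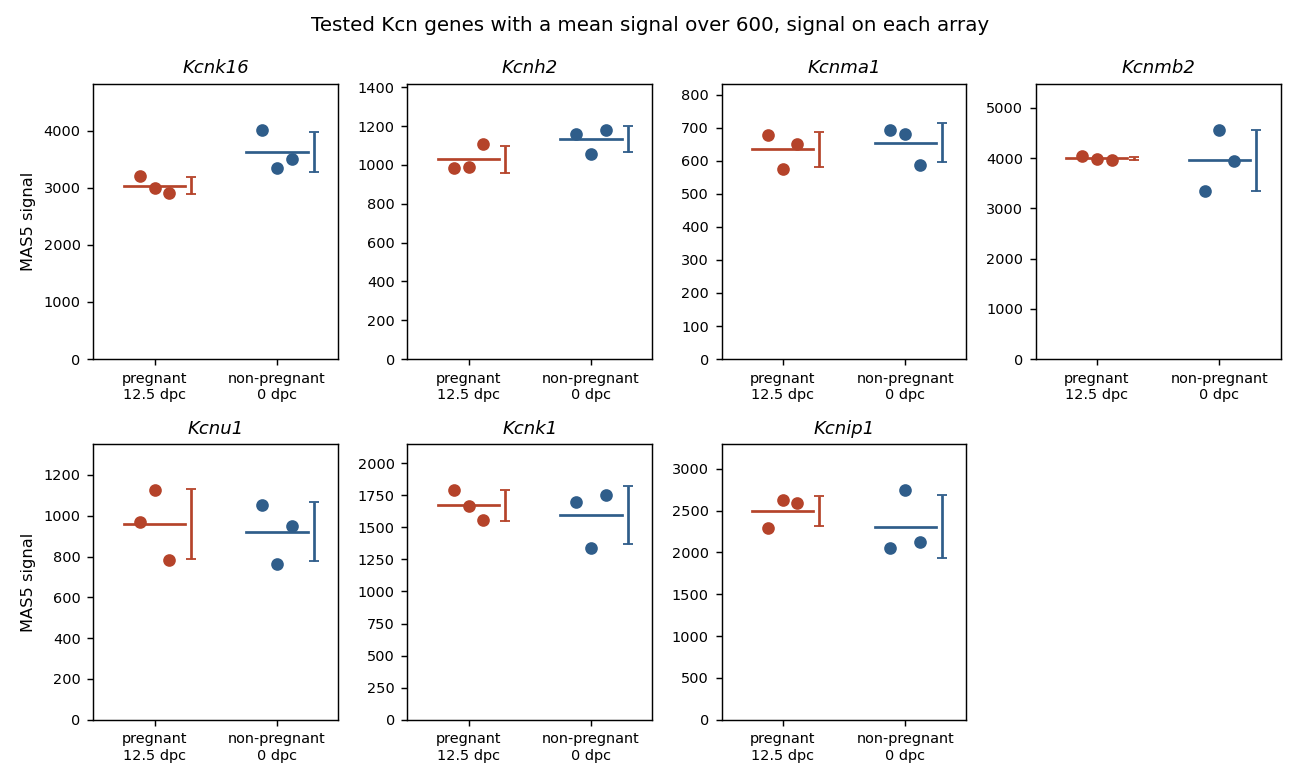
MAS5 signal (vertical axis, from 0) on each array for the 7 tested genes whose mean over the 6 arrays was over 600, pregnant islets left and non-pregnant islets right. Points are arrays, horizontal lines means and side bars 1 SD either way (n = 3 each). None of the 7 passed the threshold, and only in Kcnk16 do the pregnant and non-pregnant arrays not overlap.

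Inward rectifiers pass current more easily into the cell than out of it. Of 14 genes 7 were tested, 1 fell and 0 rose, and the class median was -0.16. Kcnj4, a strong inward rectifier, read 30.8, 66.1 and 13.8 in pregnant islets, against 181.7, 137.0 and 95.3 in non-pregnant islets. The groups did not overlap, though both varied widely, and 2 of the pregnant values were under the upper end of the bacterial controls. The means were 36.9 ± 26.7 in pregnant and 138.0 ± 43.2 in non-pregnant islets (SD, n = 3 each), a ratio of 0.267. On the log2 scale Kcnj4 differed by -1.63 ± 0.38 (SE), with a limma adjusted p of 0.020. The pseudocount matters for so dim a gene: the log2 difference was -2.09 with a pseudocount of 1 and -1.01 with 64. The call was lost without pregnant replicate 1 (adjusted p = 0.063), pregnant replicate 3 (0.056), non-pregnant replicate 1 (0.084) or non-pregnant replicate 2 (0.062), with no filter (0.059) and without the variance trend (0.098).

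The other inward rectifiers tested did not pass. Kcnj12, of the same subfamily as Kcnj4, read 292.1, 212.6 and 330.6 in pregnant islets, against 303.6, 424.0 and 420.9 in non-pregnant islets, with an overlap through pregnant replicate 3 (-0.44 ± 0.18, limma adjusted p = 0.17). Kcnj3 and Kcnj6, channels opened by G proteins downstream of hormone and transmitter receptors, had 0.01 ± 0.27 and 0.29 ± 0.24. Kcnj8, a pore subunit of ATP-sensitive channels in vessels, had -0.16 ± 0.25. Kcnj10, best known from glia, had -0.36 ± 0.29, and Kcnj13 -0.12 ± 0.20.

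The tandem-pore-domain channels carry the background leak. Of 12 genes 8 were tested, 1 fell and 0 rose, with a class median of -0.19. Kcnk3, an acid-sensitive leak channel, read 238.1, 200.3 and 276.2 in pregnant islets, against 346.8, 370.1 and 353.3 in non-pregnant islets. The non-pregnant arrays were tightly grouped and the pregnant ones all lay lower. The means were 238.2 ± 38.0 in pregnant and 356.7 ± 12.02 in non-pregnant islets (SD, n = 3 each), a ratio of 0.668. On the log2 scale Kcnk3 differed by -0.56 ± 0.15 (SE), with a limma adjusted p of 0.033. With pregnant replicate 3 left out it passed (adjusted p = 0.029). It did not pass when any other array was left out, which gave 0.090 for pregnant replicate 1, 0.12 for pregnant replicate 2, and 0.065, 0.099 and 0.080 for non-pregnant replicates 1, 2 and 3. It also did not pass with no filter (0.066), median centring (0.061), the replicate number as a block (0.052) or without the variance trend (0.084).

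Kcnk16, the alkaline-activated leak channel known from beta cells, was bright. Its signals were 3208.1, 2998.2 and 2914.8 in pregnant islets, against 4023.2, 3351.6 and 3507.0 in non-pregnant islets. The pregnant arrays were all lower, by a log2 difference of -0.25 ± 0.08 that did not pass (limma adjusted p = 0.068). It passed with quantile normalization (-0.28, adjusted p = 0.037) and with the replicate number as a block (-0.25, adjusted p = 0.044), and its interval was -0.42 to -0.08. In the other 16 of 18 alternatives it did not pass, with adjusted p up to 0.65, and up to 0.19 with 1 array left out. Kcnk1 showed no gap, with 1670 ± 117.5 in pregnant and 1596 ± 222.5 in non-pregnant islets (SD, n = 3 each) and an interval of -0.15 to 0.30.

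The remaining tandem-pore genes had wide intervals. Kcnk2, which responds to stretch, had -0.17 ± 0.35 and Kcnk5 the highest difference of the class, 0.32 ± 0.31. Kcnk12, Kcnk13 and Kcnk6 had 0.20 ± 0.18, -0.27 ± 0.28 and -0.22 ± 0.20. The non-coding antisense RNA Kcnq1ot1, which silences neighbouring genes on the paternal chromosome, had 0.03 ± 0.16 and was the only tested gene outside the channel classes.

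**Figure D4:**
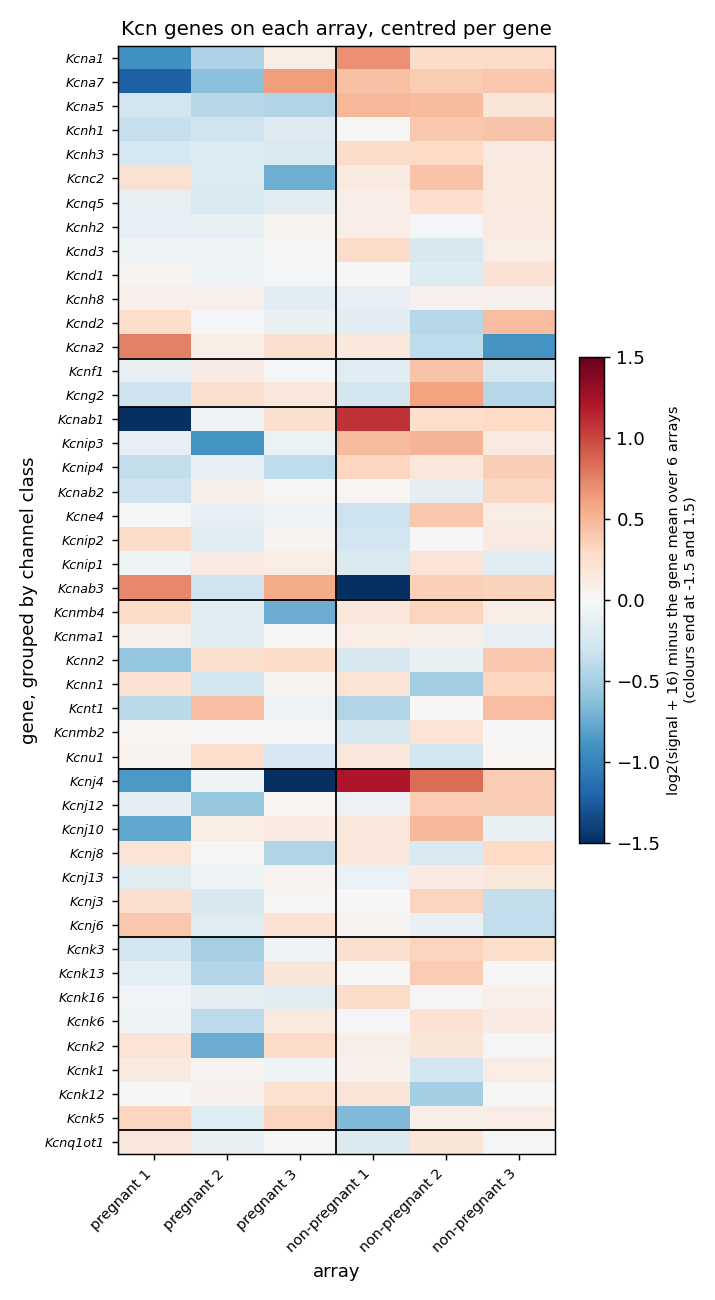
Colour map of log2(signal + 16) minus the gene's mean over the 6 arrays, for the 46 tested genes (rows, grouped by channel class) on the pregnant arrays (left 3 columns) and the non-pregnant arrays (right 3). Red is above and blue below the gene's mean, with colours ending at -1.5 and 1.5. Kcna5, Kcnip4, Kcnj4 and Kcnk3 are blue on the pregnant arrays and red on the non-pregnant arrays, while most other rows are mixed.

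For 35 of the 42 tested genes that did not pass, the unadjusted 95% interval lay within a 2-fold change in either direction. For the other 7 it reached beyond 2-fold. Among these the intervals of Kcna7, Kcnab3 and Kcnmb4 held both no change and a 2-fold change, and those of Kcna1, Kcna2, Kcnab1 and Kcnip3 did not include 0. Of the 42, 5 passed under at least 1 alternative (Kcna1, Kcna2, Kcna7, Kcnh1 and Kcnk16) and 37 under none.

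Several genes had more than 1 tested probe set, which gives a further reading of the same gene on the same RNA. Of 18 such genes, 10 had probe sets with differences of the same sign and 8 had mixed signs. Among 73 tested probe sets 4 (all lower) passed, against 9.57% of all tested probe sets. Kcnip1, Kcnk1 and Kcnmb2, all bright, were positive in every tested probe set. The mixed genes included Kcna1 (-0.84 to 0.17), Kcnn1 (-0.01 to 0.67) and Kcnj6 (-0.29 to 0.29).

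**Figure D5:**
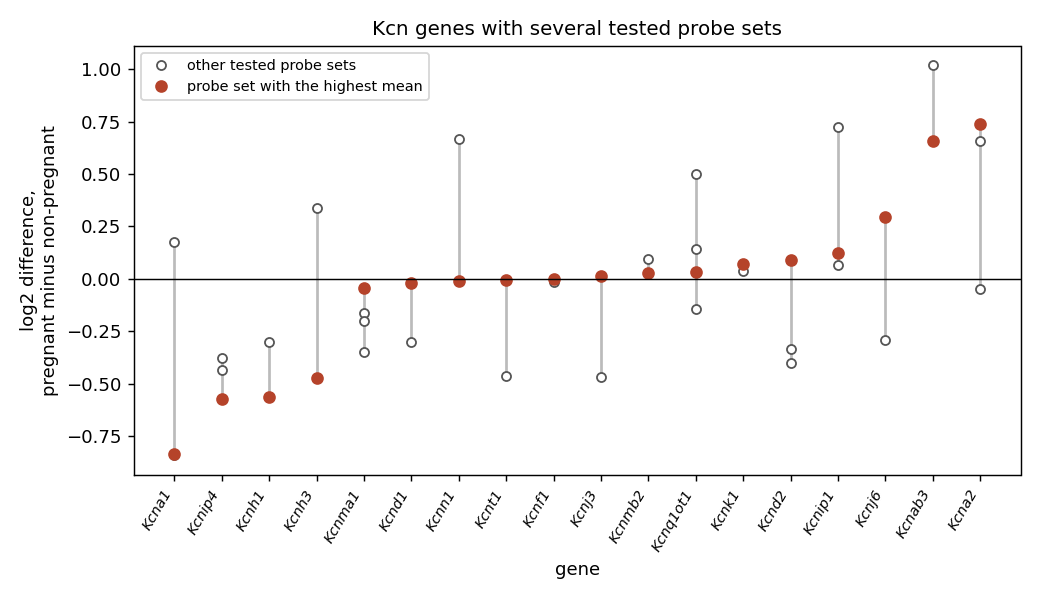
Log2 differences (pregnant minus non-pregnant, vertical axis) of every tested probe set for the 18 genes with more than 1. Filled points are the probe set with the highest mean, open points the others, and grey lines join the probe sets of a gene. In 8 genes the points lie on both sides of 0.

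The 37 genes too dim to be tested had weak signals, many within the range of the bacterial controls. Kcnn4, the intermediate-conductance calcium-activated channel, read 65.9, 80.9 and 43.3 in pregnant islets, against 42.5, 4.6 and 20.9 in non-pregnant islets. Kcna6 read 37.8, 33.0 and 51.2 in pregnant islets, against 16.5, 9.9 and 14.0 in non-pregnant islets. Both were higher on every pregnant array, though other probe sets of both genes ran the other way. One for Kcna6 read 2.9, 3.6 and 7.5 in pregnant and 36.9, 10.2 and 38.7 in non-pregnant islets, and the other one for Kcnn4 read 5.5, 13.8 and 20.2 in pregnant and 10.9, 15.3 and 44.2 in non-pregnant islets, with overlap. Kcnj5, a G-protein-gated channel subunit, read 4.6, 26.9 and 46.9 in pregnant islets, against 69.2, 48.0 and 63.2 in non-pregnant islets. With Kcna3 and Kcnk7, whose pregnant arrays were higher, these were the 5 of 37 genes (13.5%) without overlap, against 10.8% of all untested genes. In a fit with no filter none of the 37 passed, and the lowest limma adjusted p was 0.17, for Kcna6.

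Kcnq1, Kcnc1 and Kcnn3 were also under the filter. Kcnq1, whose channel is of interest in diabetes genetics, read 30.6, 21.2 and 21.4 in pregnant islets, against 19.8, 29.4 and 34.6 in non-pregnant islets. Kcnc1 read 60.6, 30.2 and 68.5 in pregnant islets, against 77.8, 8.4 and 35.3 in non-pregnant islets. For Kcnn3 all 6 signals lay between 3.4 and 7.4. All 3 genes overlapped between the groups.

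Genes that work with potassium channels but are named otherwise were also counted. Of 20 listed, 14 were named on the array and 11 tested, of which 1 fell and 0 rose. Dpp10, an accessory subunit of the A-type Kcnd channels like Kcnip4, read 1177.6, 986.4 and 959.0 in pregnant islets, against 1524.7, 1612.2 and 1348.3 in non-pregnant islets. The groups did not overlap, and the log2 difference was -0.52 ± 0.10 (SE; limma adjusted p = 0.0070). It passed under every alternative except the fit without the variance trend (0.089). Its relative Dpp6 had -0.11 ± 0.13. Abcc8, the sulfonylurea receptor that regulates the beta cell's ATP-sensitive channel, read 12087.3, 12093.6 and 13372.2 in pregnant islets, against 14013.0, 12952.1 and 13283.3 in non-pregnant islets (-0.10 ± 0.06, adjusted p = 0.34). Abcc9, its counterpart in vessels, had 0.09 ± 0.13. The sodium pump genes Atp1b1, Atp1b2, Atp1b3 and Fxyd2 and the pacemaker channels Hcn2 and Hcn3 did not pass.

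Markers of other cells in the islet preparation also moved with the groups. Of 20 tested acinar markers 17 were lower and 0 higher in pregnant islets, with a median log2 difference of -1.11. Their summed signal was 124311 to 203014 in pregnant and 213173 to 404245 in non-pregnant islets. Of 10 stellate cell and fibroblast markers 3 were lower and 0 higher (median -0.58), with summed signals of 11115 to 14270 in pregnant and 15964 to 16510 in non-pregnant islets. Of 5 tested neural and Schwann cell markers 1 was lower and 1 higher (median -0.45), with summed signals of 656.3 to 1054 in pregnant and 972.9 to 1191 in non-pregnant islets. The neural sums overlapped between the groups, while the acinar and fibroblast sums did not. Of 9 endothelial markers 1 was lower (median -0.14; 8444 to 9374 in pregnant against 9434 to 10226 in non-pregnant islets). Of 4 duct markers 1 was lower (median -0.09; 4672 to 5129 in pregnant against 5523 to 5896 in non-pregnant islets). Of 5 macrophage and lymphocyte markers 0 passed (median 0.00; 1452 to 1664 in pregnant against 1704 to 1899 in non-pregnant islets). The endothelial, duct and macrophage and lymphocyte sums did not overlap between the groups either, with the pregnant arrays lower. Krt7 made up most of the duct sum (means 4646 in pregnant and 5594 in non-pregnant islets). Csf1r made up most of the macrophage and lymphocyte sum (942 and 1143). The gaps in these sums thus rest largely on 1 gene each. Centred per gene, the duct medians were -0.07, 0.07 and 0.13 on pregnant replicates 1, 2 and 3. They were 0.21, 0.22 and -0.18 on the non-pregnant ones. The macrophage and lymphocyte medians were -0.15, -0.07 and 0.09, against 0.06, 0.13 and -0.07. Both sets of medians overlapped between the groups. Of 10 beta cell markers 2 were lower and 0 higher, with a median of 0.04 and sums of 188321 to 190625 in pregnant against 186242 to 196492 in non-pregnant islets. Of 7 alpha, delta and PP cell markers 2 were lower (median -0.09; 141592 to 152237 in pregnant against 144533 to 156157 in non-pregnant islets). Those 2 were Ghrl (log2 difference -1.14) and Irx1 (-0.40). The sum, which overlapped, came almost wholly from Gcg, Sst and Ppy, which did not pass. Centred per gene, the medians of this list were -0.01, -0.08 and -0.15 on pregnant replicates 1, 2 and 3. On the non-pregnant ones they were 0.04, 0.08 and 0.08, without overlap. None of the named markers was at 0 on any array. The bacterial controls, at 1.1 to 32.3, were not at 0 either, so this does not show that a cell type was present.

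With the median acinar level of each array as a covariate, 0 of the 46 potassium channel genes passed, and 2.65% of all genes did. That level, centred per gene, was -0.89, -0.61 and -0.22 on pregnant replicates 1, 2 and 3. On non-pregnant replicates 1, 2 and 3 it was 0.97, -0.12 and 0.96. The covariate thus ran with the groups, which widens the standard errors, and its part cannot be cleanly told apart from pregnancy. The log2 differences of the 4 genes in that fit were -0.95 ± 0.24 (SE) for Kcna5, -0.45 ± 0.23 for Kcnip4, -1.96 ± 0.68 for Kcnj4 and -0.54 ± 0.27 for Kcnk3. The part of fibroblast, endothelial, duct, immune, neural, alpha, delta and PP cells in these 4 falls was not tested. In such bulk samples fewer cells of a type and less RNA per cell cannot be told apart.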

How the data were processed

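The authors deposited 1 intensity per probe set and array, MAS5 signals per the submitters' processing notes; the sources used here do not give its version or settings, and detection calls were not used. Labelled cRNA came from an Affymetrix 3' kit, per the labels' protocols. The table held 45101 probe sets, 64 of them AFFX controls, which were left out. Arrays were already scaled to a common trimmed mean, so no normalization was added. From the deposited intensities log2(signal + 16) was computed, and log2 differences are on that scale, which understates changes of dim genes.

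The top 60% of probe sets (27022) were fitted with limma 3.58.1 in R 4.3.3 (lmFit, eBayes with trend, 4 residual degrees of freedom, 2-sided), with Benjamini-Hochberg adjustment over all of them and a threshold of 0.05. Intervals are 95% and unadjusted. The fit was run on simulated data as a check of the code. For recovery that check set a bar only for differences larger than any tested gene had here. It therefore does not bear on the calls above.

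The annotation gave 34958 probe sets 1 symbol, 932 several and 9211 none. All 83 symbols matched RefSeq by Entrez identifier. Classes follow the symbol's prefix. The members, classes and lists were chosen with earlier results of these data known. Genes are named if past the threshold, known from islet work, or largest in their class; the others are named to account for all tested members, after their values were seen. Alternatives were pseudocounts of 1 and 64, quantile normalization, median centring, no filter, a top 40% filter, no trend, robust eBayes, array weights, the replicate block, each array left out, averaged probe sets and the acinar covariate. Plots used matplotlib 3.10.9 (Python 3.11.15). The number of arrays limits the precision.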

Additional observations from a re-analysis of the deposited data

How the results depend on the processing

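The 4 genes that fell (Kcna5, Kcnip4, Kcnj4, Kcnk3) kept a negative log2 difference in every one of the 18 alternatives that tested them (Kcnj4 was not tested with the top 40% filter, nor Kcnk3 with averaged probe sets), and all 4 passed in 5 of them: both pseudocounts, quantile normalization, robust eBayes and array weights. The count of genes that fell was 2 with median centring, 2 with no filter, 2 with averaged probe sets, 1 without the variance trend, 0 with the acinar covariate and 1 to 4 with 1 array left out. The cause of these differences was not tested. The count that rose was 1 with the replicate number as a block (Kcna2) and 0 to 1 with 1 array left out. With that replicate block 4 genes fell, Kcnk16 in place of Kcnk3. The arrays share only a number: same-numbered arrays' deviations correlated at -0.03, -0.07 and 0.03, and arrays 1 and 2 of each group did not correlate best with their own number.

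The median log2 difference of the tested genes was -0.050 with quantile normalization, -0.048 with median centring, -0.025 with no filter (83 genes), -0.022 with the top 40% filter (17 genes), -0.21 with the acinar covariate and -0.16 to -0.10 with 1 array left out. Of the 42 genes that did not pass, 24 changed sign under at least 1 alternative, never while passing. Dim genes limit the reading: 37 of 83 could not be tested.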
